A study of Mus musculus with 6 samples.

Results

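The 4 mouse HtrA serine protease genes, Htra1, Htra2, Htra3 and Htra4, and the granzyme genes Gzme and Gzmd were examined in cultured fibro-adipogenic progenitors, mesenchymal muscle cells able to become fibroblasts or adipocytes. These 6 genes, out of 41388 in the deposited count table, were found by their symbols. The group was chosen by the fold changes of Htra4 and Gzme, which had stood among the genes that differ between prostaglandin E2 (PGE2) and vehicle in these same libraries; the others are their relatives. The values of all 6 genes in that comparison are therefore given as a description, without p-values.

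Primary cells from muscle of wild-type male mice received 500 nM PGE2 once daily over 2 days (3 libraries), or vehicle on the same schedule (3 libraries). Both groups grew in serum-containing medium with added human FGF. The labels do not give the age of the mice, and they do not state that each library is its own mouse or culture, so p-values cover only the variation among these libraries, part or all of which may be technical. Polyadenylated RNA was read as paired ends of 100 bases, with totals between 38150216 and 52730962 counts in PGE2 libraries and between 21006044 and 42708381 counts in vehicle libraries.

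HtrA proteins are serine proteases with a trypsin-like fold and, in their full-length forms, a PDZ domain that binds protein ends. HtrA1, HtrA3 and HtrA4 are secreted and carry an amino-terminal module related to insulin-like growth factor binding proteins, while HtrA2 resides between the mitochondrial membranes and, once released, binds inhibitor of apoptosis proteins. HtrA1 and HtrA3 cleave matrix proteins and can dampen TGF-beta signalling; HTRA4 is known mainly from human placenta. Granzymes are serine proteases stored in the granules of cytotoxic lymphocytes, and the mouse genes Gzmd, Gzme, Gzmf and Gzmg form a group of close copies known from activated T cells and uterine natural killer cells.

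Htra4 was higher with PGE2, while the other secreted members, Htra1 and Htra3, had overlapping groups. Htra4 was at 13.8, 21.3 and 19.7 CPM (counts scaled to library size) in PGE2 libraries 1 to 3, against 5.19, 5.63 and 4.48 CPM in vehicle libraries 1 to 3. The lowest PGE2 library lay above the highest vehicle library, as it did for 13.7% of all tested genes. The means were 18.3 ± 3.93 CPM with PGE2 and 5.10 ± 0.579 CPM with vehicle (SD, n = 3 each), and these came from 2467 counts in all PGE2 libraries and 536 in all vehicle libraries. The log2 fold change, PGE2 over vehicle, was 1.85 ± 0.185 (SE), or 3.60-fold, the 13th highest value among 15186 tested genes. PGE2 library 1 was the lowest of its group, and the difference between same-numbered libraries was 1.41, 1.91 and 2.12 on the log2 scale for numbers 1 to 3.

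Htra4 (ENSMUSG00000037406) lies on the minus strand of chromosome 8 at 25024929 to 25038962 of mm10, in the GENCODE annotation of that build. Its exons share 792 bases with the antisense noncoding gene Gm16933, and whether the authors' counting used strand is not given in the sources used here. Gm16933 was at 0.32, 0.39 and 0.24 CPM with PGE2, against 0.14, 0.19 and 0.30 CPM with vehicle, far below Htra4 itself. Among the 3 protein-coding genes on each side, which were looked at after values had been seen, Adam9, a membrane metalloprotease, averaged 672 ± 31.2 CPM with PGE2 and 534 ± 32.8 CPM with vehicle. Tm2d2, the nearest gene on that side, averaged 92.3 CPM with PGE2 and 72.4 CPM with vehicle. Both had PGE2 libraries above all vehicle libraries, as did 13.7% of all tested genes. Their log2 fold changes were 0.33 and 0.35, much smaller than that of Htra4. Plekha2, the nearest gene on the other side, was at 144 to 148 CPM with PGE2 and 129 to 154 CPM with vehicle, so its groups overlapped.

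**Figure D1:**
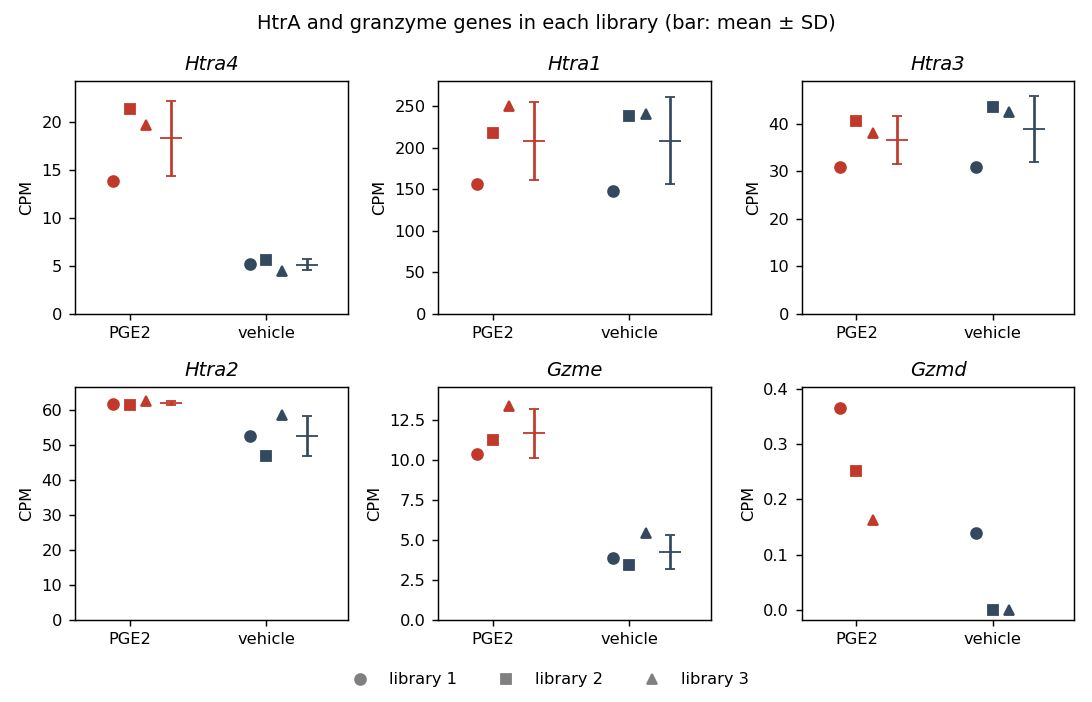
CPM of the 6 genes in each library, PGE2 left and vehicle right, with the library number shown by the marker and the mean ± SD beside the points (not drawn for Gzmd, which has 0 counts in vehicle libraries 2 and 3). For Htra4 and Gzme the PGE2 libraries sit well above the vehicle libraries, while for Htra1 and Htra3 the number 1 libraries are low in both groups and the groups overlap.

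Htra1, the most abundant member, was at 156, 218 and 250.03 CPM in PGE2 libraries 1 to 3, against 148, 238 and 240.1 CPM in vehicle libraries 1 to 3. The number 1 library was the lowest of each group, and the groups overlapped throughout. The log2 fold change was -0.0035 ± 0.239 (SE), and same-numbered libraries differed by 0.082, -0.13 and 0.059 on the log2 scale. Its sign turned with the replicate number as a block and when certain libraries were left out. The sum of 10 progenitor markers, most of it from Col1a1, Col3a1 and Pdgfra, followed the same split, at 8007 CPM in PGE2 library 1 and 13931 to 20131 CPM in the other PGE2 libraries, against 8165 CPM in vehicle library 1 and 12817 to 15815 CPM in the other vehicle libraries. Other markers on that list did not: Cd34 was at 174, 114 and 105 CPM in PGE2 libraries 1 to 3, against 242, 187 and 159 CPM in vehicle libraries 1 to 3. Thy1 was likewise highest in the number 1 library of each group, and Ly6a was neither highest nor lowest there. In bulk RNA fewer cells of a type and less RNA per cell cannot be told apart, and the part of these differences between libraries in the level of Htra1 was not tested. Htra1 (ENSMUSG00000006205) spans 130936111 to 130985660 on the plus strand of chromosome 7.

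Htra3 showed the same arrangement as Htra1. It was at 30.9, 40.6 and 38.1 CPM in PGE2 libraries 1 to 3, against 31.0, 43.5 and 42.4 CPM in vehicle libraries 1 to 3, with a log2 fold change of -0.091 ± 0.156 (SE). The groups overlapped, and number 1 was again the lowest library of each. Each PGE2 library was level with or below the vehicle library of its number, by -0.0015, -0.10 and -0.155 on the log2 scale. Gene counts do not separate the long form of HtrA3 from the short form that lacks the PDZ domain. Htra3 (ENSMUSG00000029096) lies on the minus strand of chromosome 5 at 35652023 to 35679782.

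Htra2, the mitochondrial member, averaged 61.8 ± 0.583 CPM with PGE2 and 52.5 ± 5.77 CPM with vehicle (SD, n = 3 each), a small difference. It was at 61.7, 61.3 and 62.5 CPM in PGE2 libraries 1 to 3, against 52.4, 46.8 and 58.3 CPM in vehicle libraries 1 to 3. The PGE2 libraries lay close together and above all vehicle libraries, which were more spread. PGE2 libraries lay above all vehicle libraries for 13.7% of all tested genes. The log2 fold change was 0.23 ± 0.088 (SE). Pair differences were uneven, at 0.24, 0.39 and 0.098 for numbers 1 to 3. Htra2 (ENSMUSG00000068329) lies on the minus strand of chromosome 6 at 83051266 to 83055273, and its exons share 753 bases with Aup1 and 535 with the lysyl oxidase gene Loxl3, both on the opposite strand. Aup1 was at 81.3 to 84.2 CPM with PGE2 and 72.8 to 74.6 CPM with vehicle, a log2 fold change of 0.15 ± 0.060. Loxl3 was at 567 to 725 CPM with PGE2 and 463 to 729 CPM with vehicle. With the strand setting unknown, reads of Htra2 and of these neighbours cannot be told apart where their exons overlap.

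Gzme was the granzyme gene with substantial counts, and it was higher with PGE2. It was at 10.4, 11.3 and 13.4 CPM in PGE2 libraries 1 to 3, against 3.86, 3.41 and 5.43 CPM in vehicle libraries 1 to 3. The groups did not overlap, with PGE2 above as for 13.7% of all tested genes, and number 3 was the highest library of each. The means were 11.7 ± 1.53 CPM with PGE2 and 4.23 ± 1.06 CPM with vehicle (SD, n = 3 each), from 1556 counts in all PGE2 libraries and 473 in all vehicle libraries. The log2 fold change was 1.45 ± 0.197 (SE), or 2.73-fold, and same-numbered libraries differed by 1.42, 1.71 and 1.29. The Gzme transcript has 916 bases. With a trend on transcript length removed from each library, its log2 fold change was 1.29 ± 0.183, and that of Htra4, whose longest transcript has 2180 bases, was 1.76 ± 0.189.

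Gzme (ENSMUSG00000022156) lies on the minus strand of chromosome 14 at 56117626 to 56120625, and Gzmd (ENSMUSG00000059256), its neighbour upstream, at 56129556 to 56132608. The 2 transcripts were identical at 90.0% of aligned positions, but no stretch of 100 bases of Gzme occurred unchanged in a transcript of another gene, and Gzmd shared 2 such stretches of 865, with Gzmg. The bases upstream of the start sites were identical at 238 of 251 aligned positions. Both shares count gapped positions as differences. The annotated transcripts differ in length, at 916 bases for Gzme and 964 for Gzmd, so the 2 shares do not rank one region as closer. The upstream bases are shown because Gzmd was near 0 where Gzme was counted in every library. The sequences are the 250 bases before the RefSeq start sites in build GRCm38.p6, at chr14:56120626-56120875 and chr14:56132594-56132843 on the minus strand, with capitals at bases that differ between the copies or are extra in 1 of them.
Gzme: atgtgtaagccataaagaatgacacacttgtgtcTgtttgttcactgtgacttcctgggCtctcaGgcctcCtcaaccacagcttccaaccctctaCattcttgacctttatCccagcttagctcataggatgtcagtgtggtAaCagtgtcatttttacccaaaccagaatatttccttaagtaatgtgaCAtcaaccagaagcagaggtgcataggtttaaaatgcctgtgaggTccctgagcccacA
Gzmd: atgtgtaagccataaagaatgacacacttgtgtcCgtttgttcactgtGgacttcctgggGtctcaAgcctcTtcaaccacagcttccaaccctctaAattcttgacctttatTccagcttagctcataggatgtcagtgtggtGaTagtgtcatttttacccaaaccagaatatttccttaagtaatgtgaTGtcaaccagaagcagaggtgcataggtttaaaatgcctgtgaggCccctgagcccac

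RefSeq start windows matched 4 of the 6 genes, Htra1, Htra3, Gzme and Gzmd. In the 250 bases upstream, on both strands, Gzme and Gzmd each held 1 match to AAAGGTCA, the site bound by NR4A receptors as monomers, read above as TGACCTTT, with no difference between the copies there. That motif occurred in 1.34% of 32851 mouse start windows. The cyclic AMP response element TGACGTCA, found in 1.55% of windows, matched none of the 4 genes, and its shorter core TGACG, contained in it and found in 17.8% of windows, matched Htra1 once. The AP-1 motif TGANTCA (6.75% of windows) and the TATA box letters TATAAA (12.4%) matched none of them. A match describes these letters and does not show binding.

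Gzmd was barely detected. It had 17, 13 and 6 counts in PGE2 libraries 1 to 3, against 6, 0 and 0 counts in vehicle libraries 1 to 3. The 0 counts allow levels of up to 0.142 and 0.0693 CPM in vehicle libraries 2 and 3, while the PGE2 libraries were at 0.37, 0.25 and 0.16 CPM. Vehicle library 1, at 0.14 CPM, lay just below the lowest PGE2 library. Gzmd did not pass the filter on low counts, so it was not among the tested genes, and its summed counts of 36 with PGE2 and 6 with vehicle gave a ratio of 4.78 per unit of scaled depth (95% exact binomial interval 2.00 to 13.9). Intervals and limits cover counting error only. Within the pair of genes, Gzmd held 3.40% (exact 95% interval 1.99 to 5.39), 2.19% (1.17 to 3.71) and 1.20% (0.443 to 2.60) of the summed Gzmd and Gzme counts in PGE2 libraries 1 to 3. In vehicle libraries it held 3.49% (1.29 to 7.44), 0% (0 to 4.99) and 0% (0 to 1.56), and the intervals of all libraries overlapped except those of PGE2 library 1 and vehicle library 3.

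Other granzymes were almost absent. Gzma, Gzmf and Gzmg had 0 counts in every library. Gzmb had 2 counts in PGE2 library 1 and Gzmk had 1 count in each of PGE2 libraries 1 and 3, with 0 counts of either in vehicle libraries. Gzmc had 7 counts in PGE2 library 2 and 3 in PGE2 library 3, against 0 in all vehicle libraries, and Gzmn had 1 count in a library of each group. Gzmm was the other granzyme to pass the filter on low counts, at 0.37 CPM with PGE2 and 0.40 CPM with vehicle (log2 fold change -0.13 ± 0.429; edgeR adjusted p = 0.891).

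Within the chromosome 14 cluster, the counted genes were not all adjacent. Mcpt8, a granule protease of mouse basophils whose gene starts 35.4 kb beyond the Gzme start, was named after its values had been seen. It was at 4.82, 3.88 and 5.03 CPM in PGE2 libraries 1 to 3, against 2.58, 0.946 and 1.85 CPM in vehicle libraries 1 to 3, a log2 fold change of 1.31 ± 0.319. As for Gzme and 13.7% of all tested genes, its PGE2 libraries all lay above its vehicle libraries. Ctsg, cathepsin G, lies between Gzme and Mcpt8 and had at most 0.082 CPM in any library, and Mcpt4, next beyond Mcpt8, had 0 counts throughout.

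**Figure D2:**
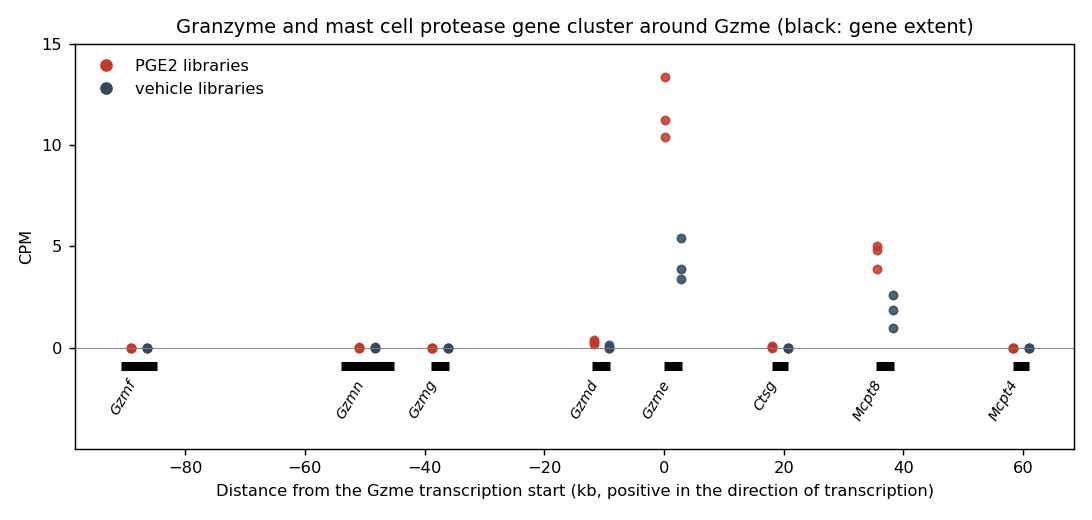
CPM of the protein-coding genes around Gzme, at their distance in kb from its start along the direction of transcription, with PGE2 libraries drawn left of vehicle libraries and black bars for gene extents. Gzme and Mcpt8 stand above the baseline and are higher in PGE2 libraries (10.4 to 13.4 and 3.88 to 5.03 CPM) than in vehicle libraries (3.41 to 5.43 and 0.946 to 2.58 CPM), while the genes between and around them lie near 0.

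Some marker genes of cells with protease granules had 0 counts in every library, and others were counted at low levels. Of 14 markers of natural killer and T cells, 6 had 0 counts in every library, namely Ptprc, Cd3e, Cd8a, Cd2, Ncr1 and Klrk1, and so did Prf1, the pore-forming protein of cytotoxic granules. The summed level of the list was 1.36 to 1.61 CPM in PGE2 libraries and 1.43 to 1.79 CPM in vehicle libraries, nearly all of it from Eomes and Il2rb. Of 10 mast cell markers, 5 had 0 counts, including the IgE receptor chain Fcer1a and the tryptases Tpsb2 and Tpsab1. The list summed to 0.474 to 0.698 CPM with PGE2 and 0.899 to 1.66 CPM with vehicle. Kit was the most abundant on average in each group. Summed over libraries, Cma1 had 14 counts with PGE2 and 17 with vehicle, Hdc 19 and 12, Cpa3 7 and 6, and Ms4a2 1 and 3. No separate list of basophil markers was read. Among 9 macrophage markers Ptprc and C1qa were at 0 counts, and the list summed to 12.7 to 13.3 CPM with PGE2 and 10.3 to 11.02 CPM with vehicle. The members did not move one way. Cd14, at 8.10 CPM with PGE2 and 5.96 CPM with vehicle, and Csf1r, at 1.89 CPM with PGE2 and 1.09 CPM with vehicle, carried the higher sum, while Mrc1 averaged 0.117 CPM with PGE2 and 0.366 CPM with vehicle and Lyz2 0.912 CPM with PGE2 and 1.19 CPM with vehicle. Myogenic markers summed to 115, 14.6 and 14.3 CPM in PGE2 libraries 1 to 3 and 179, 58.5 and 38.2 CPM in vehicle libraries 1 to 3. All 10 progenitor markers were counted. With the replicate number as a block, 5 of them passed an edgeR adjusted p of 0.05, where 14.4% of all genes did. Without the block 0 passed. Of the 5, Ly6a (mean 872 CPM with PGE2 and 568 CPM with vehicle), Thy1 (450 and 272 CPM) and Pi16 (12.8 and 6.56 CPM) were higher with PGE2. Lower were Cd34 (131 CPM with PGE2 and 196 CPM with vehicle) and Lum (4.89 and 8.30 CPM). The part of these marker differences in the levels of Htra4 and Gzme was not tested.

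Levels of different genes were set side by side per kilobase of the longest annotated transcript. On this scale the order in PGE2 libraries was Htra1 (102 ± 23.3 CPM per kb), Htra2 (24.6 ± 0.232), Htra3 (13.3 ± 1.82), Gzme (12.8 ± 1.67), Htra4 (8.39 ± 1.80) and Gzmd (0.270 ± 0.106), as SD with n = 3. In vehicle libraries the order was the same, at 102 ± 25.8, 20.9 ± 2.30, 14.2 ± 2.53, 4.62 ± 1.16, 2.34 ± 0.266 and 0.048 ± 0.084 CPM per kb. Htra3 and Gzme did not differ beyond their spread with PGE2, where they spanned 11.3 to 14.8 and 11.4 to 14.6 CPM per kb, but were apart with vehicle, at 11.3 to 15.8 and 3.72 to 5.93 CPM per kb. The other neighbours in the order had ranges that did not meet in either group. When the union of all exons was used as the length, Htra3 came to 8.23 CPM per kb with PGE2, below Gzme at 12.8 CPM per kb and within the spread of Htra4 at 7.61 CPM per kb. Of the summed HtrA level per kb, Htra4 made up 5.30% to 6.28% in PGE2 libraries and 1.299% to 2.23% in vehicle libraries, and Htra1 made up 64.5% to 72.0% in PGE2 libraries and 67.7% to 75.9% in vehicle libraries.

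**Figure D3:**
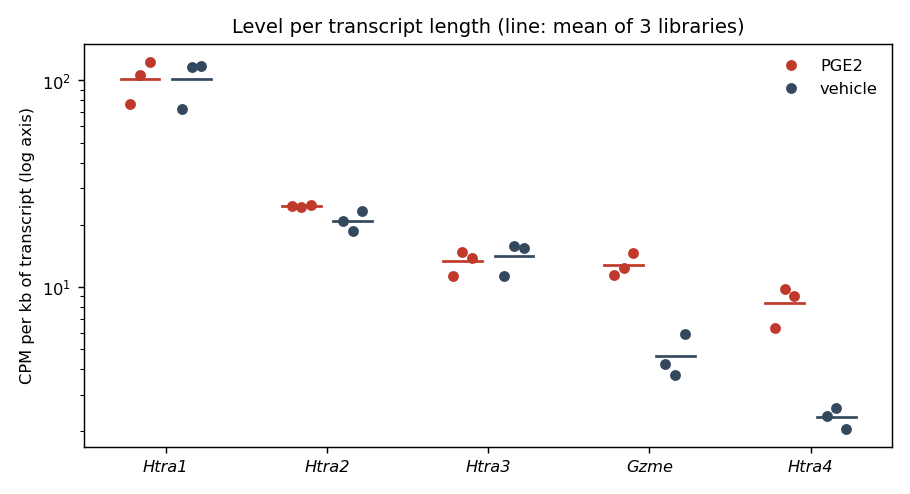
CPM per kb of the longest annotated transcript, on a log axis, for the 5 genes counted in every library, with PGE2 libraries left of vehicle libraries and a line at each mean. Htra1 lies highest in both groups, and Gzme with PGE2 (11.4 to 14.6 CPM per kb) reaches the level of Htra3 (11.3 to 14.8 CPM per kb).

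Genes with the most similar pattern across the 6 libraries were ranked by the root mean square difference of log2 CPM values centred on each gene's mean, over the 10321 tested genes whose mean reached 5 CPM. Nearest to Htra4 were the orphan nuclear receptor Nr4a1, at a difference of 0.115 log2 units, the vitamin D receptor Vdr at 0.178 and the chemokine Cxcl14 at 0.181. Nearest to Gzme were Rasl11a (0.251), a small GTPase gene, Myl9 (0.256), a myosin light chain gene, and Lims2 (0.263). Htra4 and Gzme differed from each other by 0.371. Nearest to Htra3 was Efemp1, an extracellular matrix glycoprotein, at 0.041, followed by Fam43a (0.050) and Prkra (0.051). The difference is not scaled by a gene's own spread, so it is small for any gene that varies little. Htra3 spanned only 30.9 to 43.5 CPM, while the centred values of Htra4 and Gzme had root mean squares of 0.932 and 0.771. Differences are therefore not comparable between these genes. The points share libraries, depth and treatment, so these values describe likeness only.

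**Figure D4:**
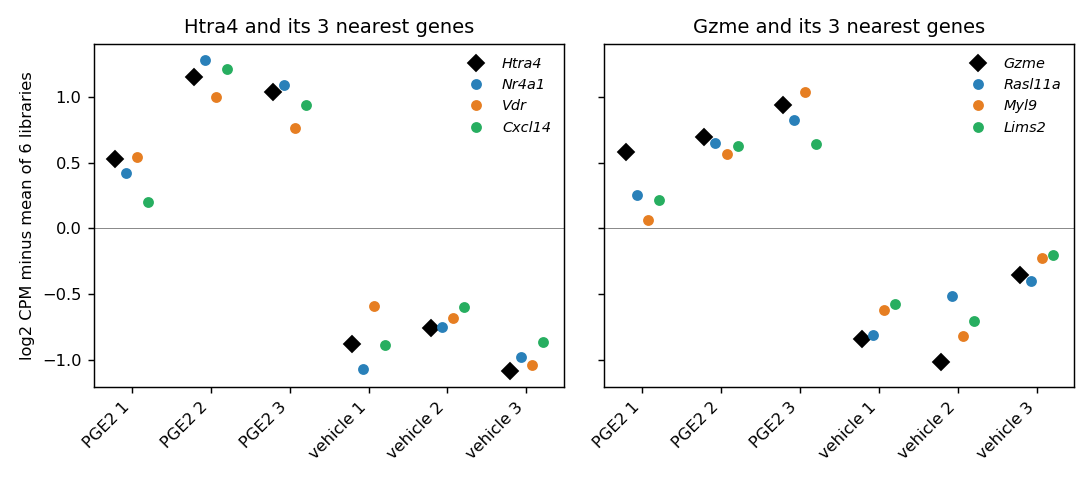
Log2 CPM minus the mean of the 6 libraries for Htra4 with its 3 nearest genes and for Gzme with its 3 nearest genes, PGE2 libraries left of vehicle libraries. Htra4 and Nr4a1 are low together in PGE2 library 1 (0.53 and 0.42) relative to PGE2 libraries 2 and 3, whereas Gzme in that library (0.58) lies above its nearest genes.

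Across all genes, 52 of 15186 (0.342%) passed an adjusted p of 0.05 by edgeR's quasi-likelihood test, and with the replicate number as a block, the paired fit, 2189 (14.4%) passed. The pairing was taken from these same data, which do not settle it for numbers 2 and 3, so paired values and their errors depend on it. Of the 5 genes of the group that were tested, Htra4 and Gzme passed in both fits; this call led to their choice and is no separate evidence. Without the block it ended for both with limma-voom, where 13 genes passed. It also ended for both without library 2 or 3 of either group, where 0 genes passed edgeR's test and 1494 to 3697 had an unadjusted p under 0.05. For Gzme it ended without vehicle library 1 or with the length trend removed (15 genes passing, 0.0988%). The log2 fold changes stayed between 1.64 and 2.03 for Htra4 and between 1.29 and 1.67 for Gzme under all alternatives run.

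Lists of 72 related genes, chosen with earlier results of these data known, were read from the same fits. Of 57 tested, 0 passed edgeR without the block, where 15 had an unadjusted p under 0.05, and limma-voom also called 0 and DESeq2 8, where DESeq2 passed 6.14% of all genes. In the paired fit 17 passed (29.8%), 9 higher and 8 lower, while over all genes 6.91% were higher and 7.51% lower. That count was 27 without the libraries of number 3, when 33.3% of all genes passed. The median log2 fold change over these 57 genes was 0.038, beside -0.0010 over all tested genes.

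The list of extracellular serpins and protease inhibitors had 3 of 5 tested members higher in the paired fit and none lower. In that fit 6.91% of all genes were higher and 7.51% lower. Serpina3n, a secreted serpin that blocks granzyme B in the mouse, was at 87.1, 172 and 197 CPM in PGE2 libraries 1 to 3, against 37.5, 62.4 and 92.9 CPM in vehicle libraries 1 to 3. Its groups overlapped, while the PGE2 library was above the vehicle library of its number each time, with a paired log2 fold change of 1.25 ± 0.084 (edgeR adjusted p = 4.8e-05 with the block and 0.182 without). The broad protease trap A2m rose by 1.03 ± 0.133 and the C1 inhibitor gene Serping1 by 0.57 ± 0.086 in the same fit. Both had overlapping groups. Without the block A2m was at 1.01 ± 0.383 (edgeR adjusted p = 0.213) and Serping1 at 0.60 ± 0.465 (edgeR adjusted p = 0.510). The serpin gene Serpinf1 did not pass (0.16), and the list's median without the block was 0.60.

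Clade B serpins, which act inside cells against granule proteases, had 1 of 6 higher and 1 lower in the paired fit. The shares over all genes were 6.91% and 7.51%, and the list's median was 0.043 without the block. Serpinb1a, an inhibitor of neutrophil granule proteases, rose by 0.65 ± 0.102, averaging 23.2 ± 3.03 CPM with PGE2 and 15.02 ± 3.57 CPM with vehicle. Serpinb8 fell by 0.85 on the log2 scale, averaging 4.43 ± 0.814 CPM with PGE2 and 8.03 ± 1.88 CPM with vehicle. Serpinb9, the intracellular inhibitor of granzyme B, was at 23.5 CPM with PGE2 and 23.0 CPM with vehicle, and Serpinb6b had a paired value of 0.51 ± 0.285; neither passed.

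Of 7 tested genes for storing, activating and releasing granule contents, 1 passed in the paired fit, where 14.4% of all genes did. This was Ctsh, the aminopeptidase cathepsin H. It rose by 0.50 ± 0.068, with 108 to 135 CPM in PGE2 libraries and 79.2 to 93.2 CPM in vehicle libraries. The granule proteoglycan gene Srgn was at 0.880 CPM with PGE2 and 0.521 CPM with vehicle, and Rab27a at 1.91 CPM with PGE2 and 2.58 CPM with vehicle. These genes and Lyst (paired log2 fold change -0.22 ± 0.103) did not pass, and the list's median was 0.038.

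Other secreted or membrane serine proteases went both ways, with 2 of 16 tested higher and 3 lower in the paired fit. That compares with 6.91% higher and 7.51% lower over all genes, and the list's median was -0.15 without the block. The proprotein convertase Pcsk5 rose by 0.96 ± 0.092 and Masp1, of the lectin pathway of complement, by 0.49 ± 0.097. Without the block Pcsk5 was at 1.03 ± 0.601 (edgeR adjusted p = 0.384) and Masp1 at 0.47 ± 0.131 (edgeR adjusted p = 0.137). Pcsk5 was at 26.7, 76.8 and 114 CPM in PGE2 libraries 1 to 3, against 16.02, 39.9 and 50.5 CPM in vehicle libraries 1 to 3. Its groups overlapped, and number 1 was lowest in each. Adipsin, Cfd, fell by 1.501 on the log2 scale in the paired fit, St14, the membrane protease matriptase, by 0.94 and the convertase Pcsk6 by 0.42. Cfd and St14 were low. Cfd averaged 0.734 CPM with PGE2 and 2.03 CPM with vehicle, from 105 and 207 counts. St14 averaged 0.723 CPM with PGE2 and 1.38 CPM with vehicle, from 100 and 149 counts. Without the block the edgeR adjusted p was 0.190 for Cfd and for St14, and 0.137 for Pcsk6.

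**Figure D5:**
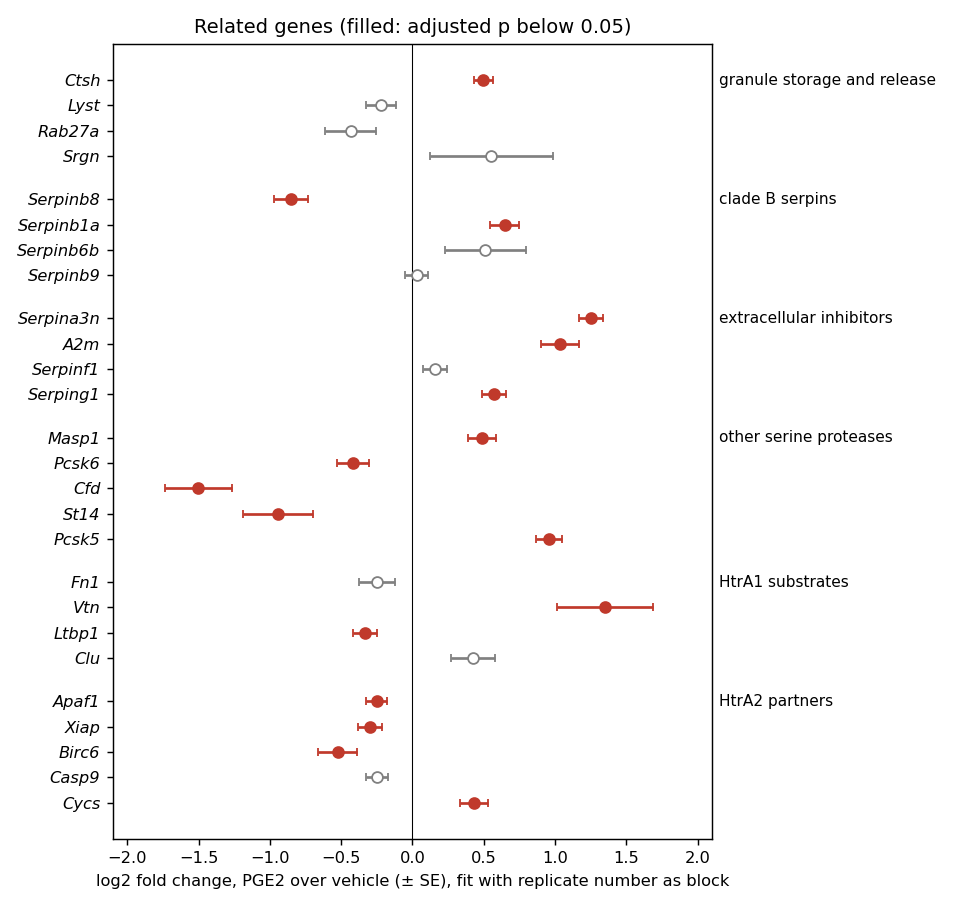
Log2 fold change, PGE2 over vehicle, with its standard error, from the paired fit, for the related genes named by rule in 6 lists; filled points passed an adjusted p of 0.05. Serpina3n (1.25), A2m (1.03) and Pcsk5 (0.96) lie to the right and Cfd (-1.501), St14 (-0.94) and Serpinb8 (-0.85) to the left. Cfd and St14 averaged at most 2.03 CPM in either group.

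Reported substrates of HtrA1 had 1 of 9 tested members higher and 1 lower in the paired fit. These counts are near the shares over all genes, 6.91% higher and 7.51% lower. The list's median was 0.075 without the block. Ltbp1, which holds latent TGF-beta in the matrix, fell by 0.33 on the log2 scale, with 245, 184 and 166 CPM in PGE2 libraries 1 to 3 and 319, 260.3 and 181 CPM in vehicle libraries 1 to 3. With the length trend removed as well, its paired value was -0.18 (edgeR adjusted p = 0.0463). The adhesive glycoprotein gene Vtn rose by 1.35 ± 0.338, at 0.840 to 4.70 CPM in PGE2 libraries and 0.488 to 2.63 CPM in vehicle libraries. Same-numbered libraries differed by 0.73, 2.69 and 0.82 for numbers 1 to 3, and vehicle library 2 had 14 counts. Without the block Vtn was at 1.36 ± 0.834 (edgeR adjusted p = 0.406). Fibronectin, Fn1, averaged 6600.0 CPM with PGE2 and 7896 CPM with vehicle and did not pass, nor did the chaperone gene Clu (paired 0.42 ± 0.153).

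Genes that act with HtrA2 had 1 of 13 tested members higher and 3 lower in the paired fit. Beside this, 6.91% of all genes were higher and 7.51% lower. The list's median was 0.020 without the block. Xiap, a caspase inhibitor that HtrA2 binds, fell by 0.30 on the log2 scale, with 64.03 to 69.3 CPM in PGE2 libraries and 74.6 to 88.8 CPM in vehicle libraries. Birc6, another inhibitor of apoptosis protein, fell by 0.53, and the apoptosome scaffold gene Apaf1 by 0.25. With the length trend removed as well, when 16.8% of all genes passed, the calls of Xiap and Apaf1 were lost in the paired fit (edgeR adjusted p = 0.123 and 0.2996), whereas that of Birc6 held at -0.22 (edgeR adjusted p = 0.0440). Cytochrome c, Cycs, rose by 0.43 ± 0.0965 in the paired fit, and Casp9 was at -0.25 ± 0.079 and did not pass there, but passed with the length trend removed as well, at -0.22 (edgeR adjusted p = 0.0355).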

How the data were processed

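Per the submitters' processing notes the build was mm10. The deposited values are raw counts, whole numbers for each gene in 6 libraries. The sources used here name no aligner, counter, strand setting or annotation release. Members, lists and tests were chosen with earlier results of these data known.

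Counts were fitted for all genes with edgeR 4.0.16 in R 4.3.3: filterByExpr (15186 genes kept), trimmed mean of M values, and a robust quasi-likelihood test with Benjamini-Hochberg adjustment over all tested genes. CPM uses the scaled library sizes. Gene positions and lengths are from GENCODE M21 (GRCm38), and upstream sequences from RefSeq. The scripts were tested on simulated data. Same-numbered libraries deviated together (correlations of 0.621, 0.169 and 0.422, each above the preset 0.1), so the numbers were treated as pairs on evidence from the data. However, PGE2 library 2 correlated at 0.252 with vehicle library 3, and PGE2 library 3 at 0.145 with vehicle library 2. Both values are above 0.1, so the rule does not settle the pairing of numbers 2 and 3, on which the paired fit rests. Alternatives were DESeq2 1.42.0, limma-voom (limma 3.58.1), other scalings and filters, a lowess trend on transcript length (span 0.3) in the offset, and libraries left out. Leaving out both libraries of a number in the paired fit was chosen after seeing the data.

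Named related genes were up to 4 per list with the smallest adjusted p, plus those past the threshold in either fit and every granzyme with a count.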

Additional observations from a re-analysis of the deposited data

How the results depend on the processing

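The number of genes past the threshold, 52, depended on the settings. It was 932 with DESeq2, 285 with no filter beyond a count above 0, 15 with the length trend removed and 13 with limma-voom. It was 2189 with the replicate block and 2549 with the block and the length trend. Leaving out libraries gave 0 to 120 without the block, with 1494 to 3697 genes at an unadjusted p under 0.05 where the count was 0, and 1372, 1160 and 5097 in the paired fit without the libraries of number 1, 2 or 3. The related lists had 0 called genes in the unblocked fit, with each library left out too; they had 8 with DESeq2, 1 with no filter, 17 with the replicate block and 22 with the block and length trend, or 12, 14 and 27 in the paired fit without the libraries of number 1, 2 or 3. Htra4, Gzme and Htra2 kept their direction under all 18 alternatives. The log2 fold change of Htra1 turned to 0.0042 with the replicate block and 0.071 with the block and without number 2, and lay between -0.21 and 0.17 with libraries left out, and that of Htra3 lay between -0.24 and 0.017. The cause was not tested for any of these. The replicate block changed no call of the 5 tested genes of the group. In the paired fit without number 3, where 33.3% of all genes passed, Htra2 passed too, and so did Gzmd, which entered that fit. Gzmd was also tested, without the block, with no filter and without PGE2 library 3 or vehicle library 1, 2 or 3. It passed in none of these, and without PGE2 library 3 or vehicle library 2 or 3 the test passed 0 genes. These calls are no separate evidence for a member. Depth limits Gzmd, Gzmc, Gzmb, Gzmk and Gzmn, whose counts were at or near 0.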
